A study of Mus musculus with 4 samples.

Results

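The genes described here are named as those of cytosolic and mitochondrial ribosomal proteins. They were measured by RNA sequencing in mouse blood stem and progenitor cells. Members were chosen by gene symbol alone, as Rpl, Rps, Rplp or Rpsa genes for the cytosolic ribosome and Mrpl or Mrps genes for the mitochondrial one, with Rps27l and the Rps6k kinases left out. The rule found 153 of the 12662 genes in the deposited log2 RPKM tables. Of these, 77 were cytosolic, with 46 of the large and 31 of the small subunit. The other 76 were mitochondrial, with 47 named Mrpl, for the large subunit, and 29 named Mrps, for the small. Class and subunit were read from the symbols alone, which need not match the place of a protein in the ribosome, or its presence there.

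There were 2 libraries labelled Hhex-deleted and 2 from wild-type mice. All were made from LSK cells, the lineage-negative, Sca-1-positive, Kit-positive bone marrow fraction that holds haematopoietic stem and multipotent progenitor cells, sorted from C57BL/6 mice. Hhex encodes a homeobox transcription factor. The sources used here do not give the agent or Cre line that deleted it, the age of the mice, or whether the libraries of a group came from separate mice. A p-value below therefore reflects the variation among these 4 libraries, which may be technical within the wild-type pair. The Hhex-deleted pair differed in sex-linked transcripts, as given below, so its libraries were not technical repeats of the same cells.

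Hhex itself was measured at 179 and 188 CPM (counts scaled to library size) in the libraries labelled Hhex-deleted, against 127 and 115 CPM in the wild-type libraries. Its log2 fold change was 0.60 (adjusted p = 0.0271, edgeR quasi-likelihood test), so a count over the whole gene did not check the deletion label. Totals were 29501591 and 29372938 counts in the Hhex-deleted libraries and 27871827 and 28584399 counts in the wild-type libraries, where 3 counts correspond to between 0.0995 and 0.109 CPM. Xist read 2662 CPM in Hhex-deleted replicate 1, against 2.59 CPM in Hhex-deleted replicate 2 and 2.66 and 1.89 CPM in the wild-type libraries, while the Y-linked Ddx3y was at 0.343 CPM in Hhex-deleted replicate 1, against 138 CPM in Hhex-deleted replicate 2 and 134 and 124 CPM in the wild-type libraries. Hhex-deleted replicate 1 therefore has the pattern of female cells, and the other libraries have that of male cells. Values without Hhex-deleted replicate 1 are given for the classes and for many of the named members. The summed level of 6 LSK markers was 1800 and 2191 CPM in the Hhex-deleted libraries and 1857 and 1780 CPM in the wild-type libraries. None of the 6 passed the test, beside 2.6% of all tested genes, which is not a result about these markers. Their median log2 fold change was 0.24, with 5 positive and 1 negative.

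Ribosomal proteins assemble with ribosomal RNA in the nucleolus into the subunits of the cytosolic ribosome, which translates nearly all cellular mRNA. The mitochondrial ribosome is built in the mitochondrial matrix from imported Mrpl and Mrps proteins, and it translates the few mRNAs of the mitochondrial genome, which encode subunits of the respiratory chain and ATP synthase. Mouse haematopoietic stem cells are known for a low rate of protein synthesis, and in human Diamond-Blackfan anaemia loss of 1 copy of a cytosolic ribosomal protein gene impairs red cell production. Cytosolic ribosomal protein genes have also left many processed copies across mammalian genomes. Such copies can match the parent transcript over nearly its whole coding sequence, which bears on every count below.

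Rpl39, whose protein lines the exit tunnel of the large subunit, and the locus Rpl39-ps on chromosome 15 are shown because nearly all reads of this pair were counted at the locus and not at the member. Capitals mark the single base that differs, T96C, counted from 1 at the A of the start codon, member base first. The sequences are bases 1 to 150 of the 153 coding bases, from GENCODE transcripts on GRCm38.
Rpl39: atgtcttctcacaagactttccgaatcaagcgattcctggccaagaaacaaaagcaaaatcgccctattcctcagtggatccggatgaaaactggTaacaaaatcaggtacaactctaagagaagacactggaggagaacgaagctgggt
Rpl39-ps: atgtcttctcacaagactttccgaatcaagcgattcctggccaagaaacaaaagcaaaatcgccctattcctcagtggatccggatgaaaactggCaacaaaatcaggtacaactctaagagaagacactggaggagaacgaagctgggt
The same was seen for Rpl11, which with Rpl5 and 5S ribosomal RNA forms the particle that binds Mdm2. Over its 534 coding bases, Rpl11 and the locus Gm10288 on chromosome 3 differed at 1 base, G86A, which is an identity of 99.8%. Bases 1 to 150 are shown.
Rpl11: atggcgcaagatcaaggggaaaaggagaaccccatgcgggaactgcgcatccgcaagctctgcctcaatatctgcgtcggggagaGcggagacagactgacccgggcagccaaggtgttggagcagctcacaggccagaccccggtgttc
Gm10288: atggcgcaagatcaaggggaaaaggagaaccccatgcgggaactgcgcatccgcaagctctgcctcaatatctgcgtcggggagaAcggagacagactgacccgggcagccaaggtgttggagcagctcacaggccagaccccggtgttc

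Rpl39 was counted at 20 and 10 reads in the Hhex-deleted libraries and 19 and 15 reads in the wild-type libraries. Rpl39-ps was counted at 19728 and 20814 reads in the Hhex-deleted libraries and 18252 and 17843 reads in the wild-type libraries. Rpl11 held 239 and 174 reads in the Hhex-deleted libraries and 195 and 194 reads in the wild-type libraries, against 10080 and 9030 reads in the Hhex-deleted and 9537 and 9521 reads in the wild-type libraries for Gm10288. A read that lies within the identical stretches matches both loci. How the authors' counting treated reads with several matches is not given in the sources used here, so transcripts of the member and of its copy cannot be told apart there.

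Shared sequence was a property of the cytosolic class as a whole. Each coding sequence was split into all overlapping stretches of 50 bases (50-mers), and those also found in a transcript of another annotated gene or pseudogene were counted. The median cytosolic member shared 93.0% of its 50-mers, and 29 of 77 shared 100%. The median mitochondrial member shared 0%, and 48 of 76 shared none. Mrpl23 and Mrpl53 were the mitochondrial members at 100%, and each shared its sequence with 1 other annotated gene, which can include a transcript that overlaps the member.

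Loci holding at least 25% of a member's 50-mers were called near-identical loci. Such a locus shares stretches with the member and need not match it throughout. Placed without gaps, Rps15a-ps7 matched 81.0% of 389 Rps15a bases, and Gm12918 matched 100% of 633 Rpl13 bases. The count table listed 110 of them for 44 cytosolic members and 2 for 2 mitochondrial members. The cytosolic ones held 1.69% and 1.62% of all counts in the Hhex-deleted libraries and 1.67% and 1.64% in the wild-type libraries. For 29 cytosolic members more than 50% of the combined reads lay at such loci, and for 8 more than 90%. No mitochondrial member was in that position. Rpl39 had 64 reads at the gene and 77677 at such loci, so 99.9% of its combined reads lay there. The percentage was 98.8% for Rpl11 and 97.3% for Rps29, a zinc-binding small subunit protein. Gm14303 on chromosome 2 matched all 168 coding bases of Rps29 with 0 differences. Rplp2 had 84.8% of its combined reads at Wdr89, a coding gene whose annotated transcripts contain 66.2% of the Rplp2 50-mers, so that sum can include reads of Wdr89 itself.

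**Figure D1:**
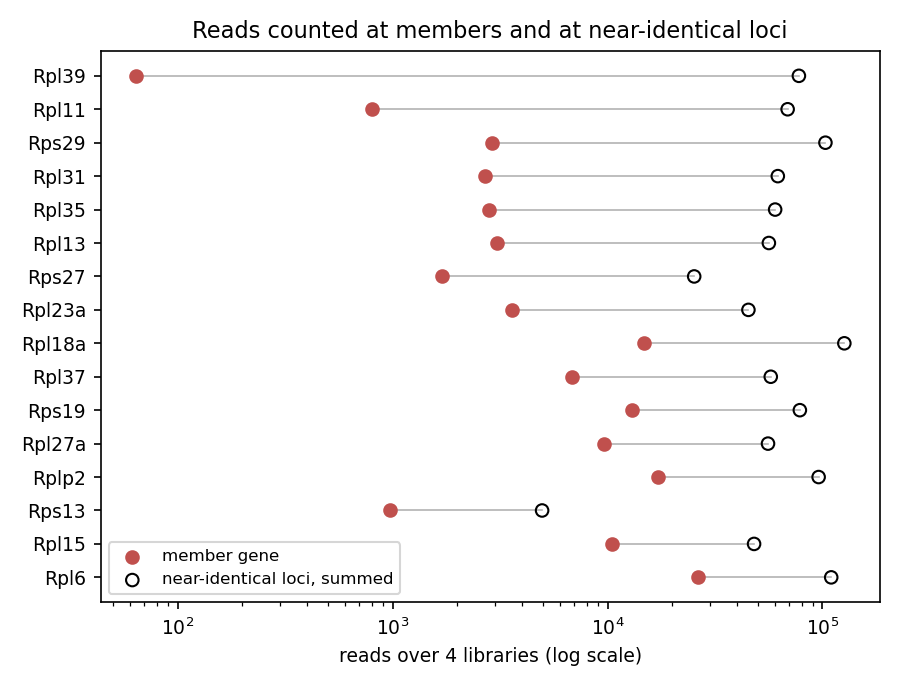
Reads summed over the 4 libraries (log scale) at the cytosolic member genes with more than 80% of their combined reads at near-identical loci (filled points) and at those loci (open points). Rpl39 is at the top with 64 reads at the gene and 77677 at its loci.

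Levels per gene length differed between the classes. The mean RPKM over the 4 libraries had a median of 197 for cytosolic members and 37.9 for mitochondrial members, beside 11.2 for all 14912 genes that passed the low-count filter. The median cytosolic level was 197 and 186 RPKM in the Hhex-deleted libraries and 199 and 194 RPKM in the wild-type libraries. The median mitochondrial level was 37.8 and 34.2 RPKM in the Hhex-deleted libraries and 38.8 and 38.3 RPKM in the wild-type libraries. Hhex-deleted replicate 2 was the lowest of the 4 libraries in both classes.

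The cytosolic class was the more uneven. Its 90th percentile was 37.8 times its 10th percentile, against 5.58 times for the mitochondrial class. The highest were Rplp1 (2242 RPKM), an acidic stalk protein, Rpl8 (1955), which sits near the peptidyl transferase centre, Rpl32 (1910), Rpl4 (1758), which lines the exit tunnel, and Rps9 (1727), which lies near the mRNA entry. The lowest was Rpl39, at 1.42 RPKM. Among mitochondrial members the highest were Mrpl33 (166 RPKM), Mrpl12 (111), Mrpl52 (94.7), Mrpl18 (92.4) and then Mrpl13, and the lowest was Mrpl23 at 2.13 RPKM. In all, 76 of 77 cytosolic and 70 of 76 mitochondrial members lay above the median of all tested genes.

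Cytosolic level went with shared sequence. The 10 members with at most 50% of 50-mers shared had a median of 1432 RPKM, the 38 between 50% and 100% had 304 RPKM, and the 29 at 100% had 55.4 RPKM. Across the 77 cytosolic genes Spearman's rho between the shared percentage and log2 RPKM was -0.66, and across the 76 mitochondrial genes it was -0.13. Both are descriptions across genes, which share libraries and are not independent replicates. The shared percentage had a rho of 0.05 with the log2 fold change of cytosolic members and -0.01 with that of mitochondrial members.

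**Figure D2:**
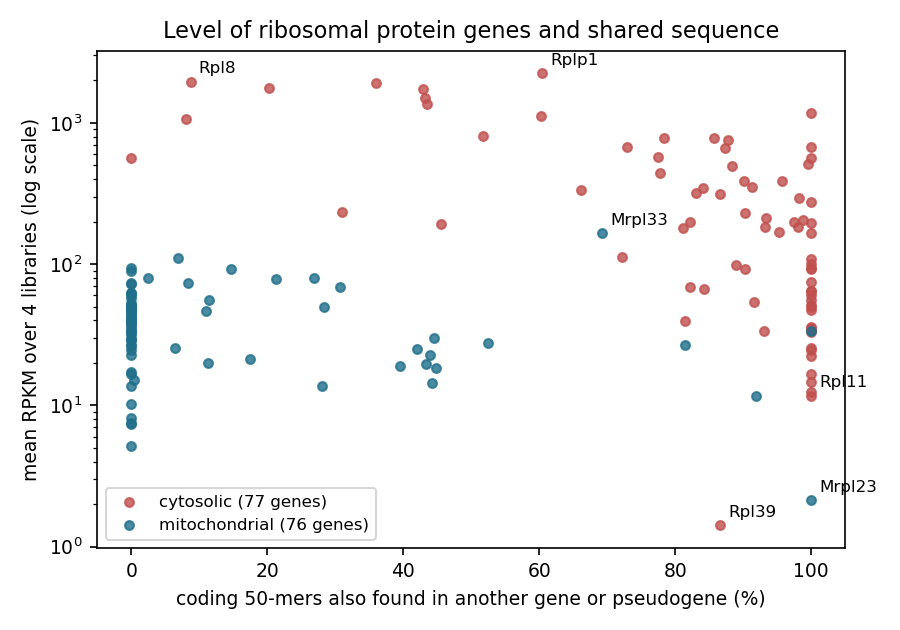
Mean RPKM over 4 libraries (log scale) against the percentage of coding 50-mers also present in another annotated gene, for 77 cytosolic (red) and 76 mitochondrial (blue) members. Cytosolic members with at most 50% shared have a median of 1432 RPKM and those at 100% one of 55.4 RPKM, while 48 mitochondrial members sit at 0%.

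The comparison of Hhex-deleted with wild-type libraries asks whether loss of Hhex goes with a change in ribosomal protein transcripts. No member passed the edgeR quasi-likelihood test at an adjusted p of 0.05, of 153 that all passed the low-count filter, while 388 of 14912 genes (2.6%) did, 221 higher (1.48%) and 167 lower (1.12%). At an unadjusted p under 0.05 there were 0 members higher and 2 lower, Mrpl33 and Mrpl19, against 7.59% of all tested genes higher and 8.23% lower, or 15.8% in either direction. DESeq2 called 1 member, Mrpl33 (6.63% of all genes), and limma-voom called 0 (1.35%). Limma on the deposited log2 RPKM values also called 0 members (0.316% of 12662 genes).

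The sizes of the differences were small and narrowly spread. The 77 cytosolic log2 fold changes had a median of -0.02, with quartiles at -0.07 and 0.02, and the median was 0.00 when libraries were scaled by their totals alone. The 76 mitochondrial values had a median of -0.08, with quartiles at -0.14 and 0.00. All tested genes had a median of -0.01, with quartiles at -0.14 and 0.13. The SD across genes was 0.088 for cytosolic, 0.092 for mitochondrial and 0.579 for all tested genes. For 147 of 153 members the 95% interval of the fold change lay within 1.5-fold in both directions, beside 58.3% of all tested genes. The exceptions were Rpl27, Rpl36a, Rpl39, Rps13, Mrpl23 and Mrpl36, for which the interval reached past 1.5-fold, so that a change of that size was not excluded.

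**Figure D3:**
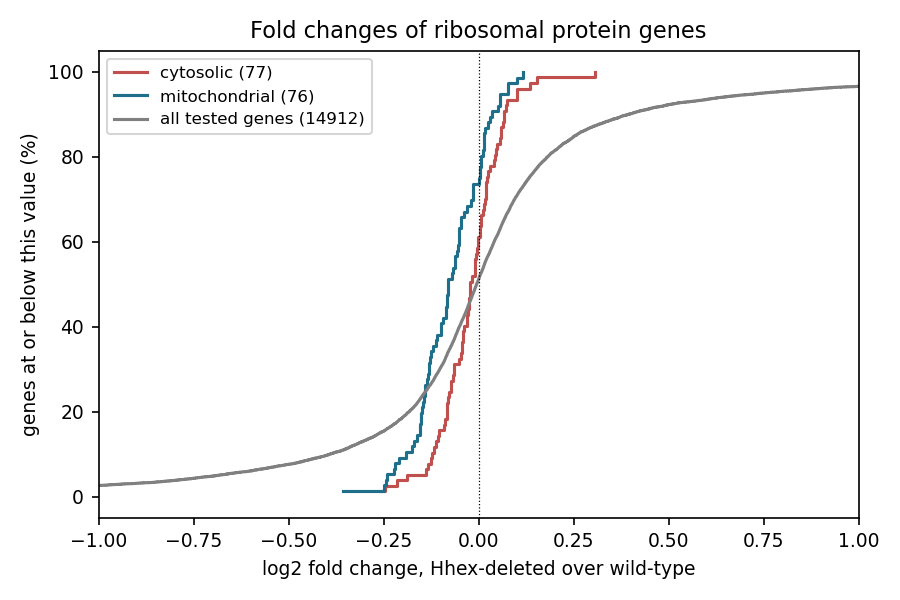
Cumulative percentage of genes at or below each log2 fold change (Hhex-deleted over wild-type) for 77 cytosolic members (red), 76 mitochondrial members (blue) and 14912 tested genes (grey), with the axis limited to -1 and 1. Both member curves are steeper than the grey one, and the mitochondrial curve lies to the left, with a median of -0.08 against -0.02 for cytosolic members.

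More mitochondrial than cytosolic members had a negative fold change, 56 of 76 (73.7%) against 47 of 77 (61.0%), beside 51.2% of all tested genes. Both Hhex-deleted libraries were below both wild-type libraries for 31 mitochondrial members (40.8%) and 11 cytosolic members (14.3%), beside 23.7% of all genes. The reverse held for 4 mitochondrial and 4 cytosolic members (5.26% and 5.19%), beside 21.9%. Groups that did not overlap in either direction therefore made up 46.1% of mitochondrial members, near the 45.5% of all genes, and 19.5% of cytosolic members. The mitochondrial shift rested largely on Hhex-deleted replicate 2. The median of the class was -0.14 without Hhex-deleted replicate 1, which leaves libraries with the same pattern of sex-linked transcripts. It was -0.00 without Hhex-deleted replicate 2, where the Hhex-deleted library left is the one with the female pattern. The cytosolic median was -0.08 and 0.05 under the same omissions, so its sign was not stable.

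The Hhex-deleted libraries differed from each other by more than either class median. They also differed in sex-linked transcripts, so sex and other differences between them cannot be told apart. Hhex-deleted replicate 2 was lower than replicate 1 in 69 of 77 cytosolic members (median log2 difference -0.14) and 68 of 76 mitochondrial members (-0.12), beside 51.1% of all tested genes. Wild-type replicate 2 was lower than replicate 1 in 64 of 77 cytosolic (-0.07) and 46 of 76 mitochondrial members (-0.02), beside 49.8% of all genes. In the wild-type pair the mitochondrial difference was thus smaller than the class shift of -0.08.

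**Figure D4:**
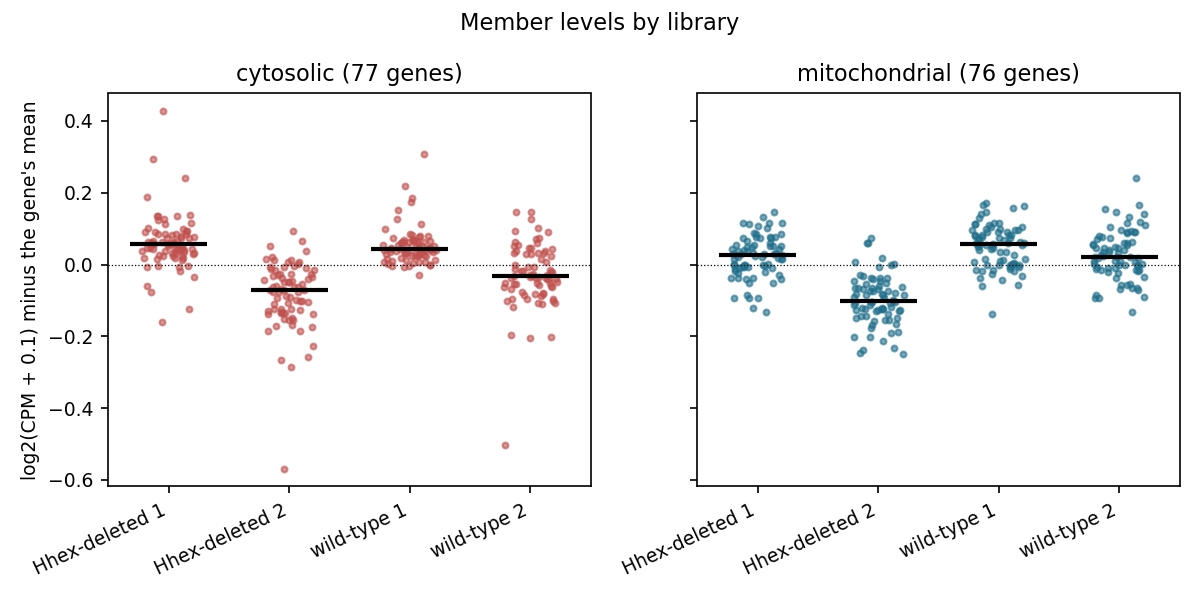
Deviation of log2(CPM + 0.1) from the mean of the gene over 4 libraries, for cytosolic (left panel) and mitochondrial members (right panel), with black bars at the median of each library. Hhex-deleted replicate 2 is lowest in both panels, with medians of -0.07 for cytosolic and -0.10 for mitochondrial members.

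Summed over members, the cytosolic class took 2.61% and 2.45% of all counts in the Hhex-deleted libraries and 2.56% and 2.49% in the wild-type libraries, and the groups overlapped. The mitochondrial class took 0.342% and 0.325% in the Hhex-deleted libraries and 0.347% and 0.346% in the wild-type libraries, with both Hhex-deleted libraries below. The log2 ratio of cytosolic to mitochondrial counts was 2.93 and 2.91 in the Hhex-deleted libraries and 2.89 and 2.84 in the wild-type libraries. The difference of 0.06 stayed between 0.04 and 0.08 when any library was left out. With 2 libraries against 2 an exact permutation test cannot go below p = 0.33, so no p is given. In such bulk samples a change in the cells present and a change in RNA per cell cannot be told apart.

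Markers of other cells moved between the same libraries. The calls below stand beside 2.6% of all tested genes past the edgeR test. The 7 B-lineage markers summed to 109 and 136 CPM in the Hhex-deleted libraries and 38.8 and 43.5 CPM in the wild-type libraries, with 6 higher by edgeR's adjusted p. The 5 mast cell and basophil markers summed to 893 and 844 CPM in the Hhex-deleted and 201 and 186 CPM in the wild-type libraries, and all 5 were higher. The 5 granulocyte-monocyte progenitor markers summed to 12138 and 8644 CPM in the Hhex-deleted and 17241 and 21094 CPM in the wild-type libraries, with 2 lower. Neutrophil markers summed to 89.0 and 449 CPM in the Hhex-deleted and 484 and 989 CPM in the wild-type libraries. None of 5 passed the test, but all 5 had a negative log2 fold change (median -1.19, SE up to 1.88). Erythroid markers summed to 602 and 533 CPM in the Hhex-deleted and 410 and 414 CPM in the wild-type libraries. None of 6 passed it, but all 6 had a positive log2 fold change (median 0.45). The lack of calls among 5 or 6 genes does not show that they were unchanged. T-lineage markers summed to at most 3.98 CPM in every library. No marker was at 0 in all 4 libraries. The part of these cells in the values of the ribosomal protein genes was not tested.

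Among large subunit proteins of the mitochondrial ribosome, Mrpl33 had 70.8 and 65.2 CPM in the Hhex-deleted libraries and 83.4 and 91.0 CPM in the wild-type libraries. Both Hhex-deleted libraries were below both wild-type ones. Its log2 fold change was -0.36 ± 0.086 (SE), with an adjusted p of 0.102 by edgeR. Over the alternatives the adjusted p ran between 0.0419, the DESeq2 call, and 0.591, and the fold change stayed between -0.42 and -0.29 when any library was left out. Of its coding 50-mers, 69.2% were shared with 1 other annotated gene, not in the count table.

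Mrpl19 had 64.0 and 62.5 CPM in the Hhex-deleted libraries and 73.4 and 73.9 CPM in the wild-type libraries, also without overlap. Its log2 fold change was -0.22 ± 0.072 (SE), with an adjusted p of 0.209 by edgeR, and it is named after its value was seen. Mrpl37, a protein with no bacterial counterpart, had 60.9 and 51.2 CPM in the Hhex-deleted and 67.9 and 64.8 CPM in the wild-type libraries (log2 fold change -0.24). Mrpl4, a homologue of the tunnel protein of the bacterial large subunit, had 44.9 and 37.9 CPM in the Hhex-deleted and 50.3 and 47.7 CPM in the wild-type libraries (-0.24). Mrpl36 (-0.25) and the small subunit protein Mrps28 (-0.22) completed the 5 lowest of the class with Mrpl33, Mrpl4 and Mrpl37. Without Hhex-deleted replicate 1 the log2 fold change was -0.37 for Mrpl37 and Mrpl4, -0.32 for Mrps28 and -0.24 for Mrpl36. Without Hhex-deleted replicate 2 it was -0.12 for Mrpl37 and Mrpl4, -0.13 for Mrps28 and -0.25 for Mrpl36. Their adjusted p by edgeR lay between 0.102 and 0.659.

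At the other end of the mitochondrial class, Mrps31 had 28.7 and 26.6 CPM in the Hhex-deleted libraries and 24.1 and 26.9 CPM in the wild-type libraries, which overlap (log2 fold change 0.12, and 0.06 without Hhex-deleted replicate 1, 0.04 without wild-type replicate 1). Mrpl24 had 71.4 and 73.6 CPM in the Hhex-deleted and 67.9 and 67.2 CPM in the wild-type libraries, which do not overlap (0.10, adjusted p = 0.612 by edgeR). Mrpl35 (0.08, and -0.00 without Hhex-deleted replicate 1), Mrps6 (0.08) and Mrpl50 (0.06) followed. The spread of the class, from -0.36 to 0.12 on the log2 scale, was thus longer on the negative side.

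In the cytosolic class several of the extremes were members with few reads. Rps13 had 11.1 and 7.63 CPM in the Hhex-deleted libraries and 9.38 and 5.78 CPM in the wild-type libraries, which overlap, for a log2 fold change of 0.31 ± 0.302 (SE). Leaving out Hhex-deleted replicate 1 or wild-type replicate 2 gave 0.01, while 0.56 and 0.70 were found without Hhex-deleted replicate 2 and wild-type replicate 1. For Rps13, 83.6% of the combined reads lay at near-identical loci. Rpl10, which closes the peptidyl transferase site late in assembly, was at 0.15, Rps15a at 0.13 and Rpl21 at 0.10. Without Hhex-deleted replicate 1 they were at 0.04, 0.16 and 0.06, and without wild-type replicate 2 at 0.04, 0.02 and 0.05. Rpl21 had 183 and 174 CPM in the Hhex-deleted libraries and 173 and 160 CPM in the wild-type libraries, so its groups did not overlap (adjusted p = 0.667 by edgeR).

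The 5 lowest cytosolic members were Rpl39 (-0.26), Rpl27 (-0.25), Rpl36a (-0.22), Rpl29 (-0.19) and Rps21 (-0.14). Rpl29, which mice can live without at reduced size, had 158 and 145 CPM in the Hhex-deleted libraries and 167 and 179 CPM in the wild-type libraries. Its adjusted p of 0.364 by edgeR was the smallest of the cytosolic class, and its groups did not overlap. Rpl39 had 0.685 and 0.332 CPM in the Hhex-deleted and 0.693 and 0.525 CPM in the wild-type libraries, with an SE of 0.492. Its log2 fold change was -0.87 without Hhex-deleted replicate 1 and 0.18 without Hhex-deleted replicate 2, so its sign turned. The same omissions gave -0.42 and -0.09 for Rpl27, -0.16 and -0.26 for Rpl36a, -0.25 and -0.12 for Rpl29, and -0.26 and -0.02 for Rps21.

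The stalk recruits translation factors. Its base Rplp0 had 1630 and 1305 CPM in the Hhex-deleted libraries and 1592 and 1605 CPM in the wild-type libraries, so the low value was that of Hhex-deleted replicate 2 (log2 fold change -0.12, 0.04 without that library and -0.29 without Hhex-deleted replicate 1). Rplp1 was at -0.00 and Rplp2 at -0.08. The mitochondrial stalk proteins Mrpl10 and Mrpl12 were at -0.07 and -0.14, with overlapping groups. Mrpl12 had 111 and 89.1 CPM in the Hhex-deleted and 115 and 106 CPM in the wild-type libraries. The low library was the same as for Rplp0. Without it Mrpl12 was at 0.02, and without Hhex-deleted replicate 1 at -0.31.

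Rpl5 and Rpl11, the proteins of the 5S particle, were at -0.03 ± 0.083 and 0.01 ± 0.226 (SE). Rpl11 was at -0.27 without Hhex-deleted replicate 1 and at 0.24 without Hhex-deleted replicate 2. Rpl5 had 227 and 216 CPM in the Hhex-deleted and 235 and 215 CPM in the wild-type libraries. Of 17 members whose human counterparts are mutated in Diamond-Blackfan anaemia, 0 passed the edgeR test, beside 2.6% of all tested genes. For 17 genes, 0 calls lies near that share and is not a result about these genes. At an unadjusted p under 0.05 there were 0, beside 15.8%, and the median log2 fold change was -0.01. Among the X-linked members, Rps4x had 350 and 336 CPM in the Hhex-deleted libraries and 355 and 330 CPM in the wild-type libraries (0.00, and -0.03 without Hhex-deleted replicate 1). The other X-linked members were Rpl10, Rpl36a and Rpl39. Hhex-deleted replicate 1, the library with Xist, held the highest value of the 4 libraries for Rpl10 and the lowest for Rpl36a, at 5.45 CPM, beside 5.87 CPM in Hhex-deleted replicate 2 and 6.38 and 6.76 CPM in the wild-type libraries.

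The near-identical loci were also without calls. Of 99 cytosolic loci that passed the low-count filter, 0 were called by edgeR, beside 2.6% of all tested genes. At an unadjusted p under 0.05 there were 0, beside 15.8%. These loci had a median log2 fold change of -0.03 and a range between -0.34 and 0.50. With their reads added to the members, the cytosolic median was -0.02 and the mitochondrial one -0.08.

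Several ribosomal proteins have a second gene, which can replace the first in the ribosome or serve outside it, so ratios within 11 pairs were taken per library. Such a ratio does not depend on library scaling, and no p is given for it. It does depend on how reads were split between a member and its near-identical loci, and the effect of that split was not tested. Over the 4 libraries Rps27 held 1689 reads against 25298 at such loci, Rpl39 64 against 77677 and Rpl3 60719 against 23440. Mrps18b held 1747 against 942. No such reads were listed for Rpl7, Rpl22, Rpl36a, Rps4x, Mrps18a or Mrps18c, though Rpl36a shared 100% and Rps4x 90.1% of 50-mers. Groups did not overlap for 45.5% of all tested genes, so a ratio without overlap is not by itself a deviation. The pair that differed most among those with both genes tested was Rps4l over Rps4x. Rps4l, a copy of the small subunit gene Rps4x that the deposited tables name Rps4y2, had 239 and 194 reads in the Hhex-deleted libraries and 284 and 348 reads in the wild-type libraries. The log2 ratio of RPKM was -5.51 and -5.80 in the Hhex-deleted libraries and -5.19 and -4.85 in the wild-type libraries, and the difference of means was -0.63. The groups did not overlap, and the difference was -0.78 without Hhex-deleted replicate 1 and between -0.80 and -0.46 over all single omissions. By itself Rps4l had a log2 fold change of -0.62 ± 0.196 (SE), with an adjusted p of 0.189 by edgeR, while Rps4x was at 0.00.

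Rpl22l1 encodes a paralogue of Rpl22, a large subunit protein needed for normal T-cell development in mice. Their log2 ratio was -0.58 and -0.70 in the Hhex-deleted libraries and -0.40 and -0.55 in the wild-type libraries, a difference of -0.17 without overlap (-0.23 without Hhex-deleted replicate 1, -0.09 without wild-type replicate 1). Neither gene passed the test, with log2 fold changes of -0.10 for Rpl22l1 and 0.07 for Rpl22. Rpl39l, known for its expression in the testis, had 2 and 2 reads in the Hhex-deleted libraries and 6 and 16 reads in the wild-type libraries, fell below the low-count filter and was not tested. Rpl10l had 0 reads in all 4 libraries. Among the Mrps18 genes of the mitochondrial ribosome, the log2 ratio of Mrps18b to Mrps18a was -1.30 and -1.33 in the Hhex-deleted libraries. It was -1.53 and -1.50 in the wild-type libraries, a difference of 0.20 (0.19 without Hhex-deleted replicate 1). The ratio of Mrps18c to Mrps18a differed by 0.15 (0.22 without Hhex-deleted replicate 1, 0.07 without Hhex-deleted replicate 2), with no overlap in either pair. Both ratios have Mrps18a as the denominator, so they are not independent. The log2 fold changes were -0.19 for Mrps18a, 0.01 for Mrps18b and -0.05 for Mrps18c, and none passed the test (adjusted p = 0.426 for Mrps18a by edgeR). The ratios Rpl3l/Rpl3 (-0.35), Rpl7l1/Rpl7 (-0.10), Rpl36al/Rpl36a (0.11), Rps27l/Rps27 (-0.22) and Mrps18c/Mrps18b (-0.06) had overlapping groups. Without Hhex-deleted replicate 1 the Rpl36al/Rpl36a and Mrps18c/Mrps18b differences changed sign, to -0.04 and 0.03, and Rpl3l/Rpl3 did so without wild-type replicate 1, to 0.16.

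**Figure D5:**
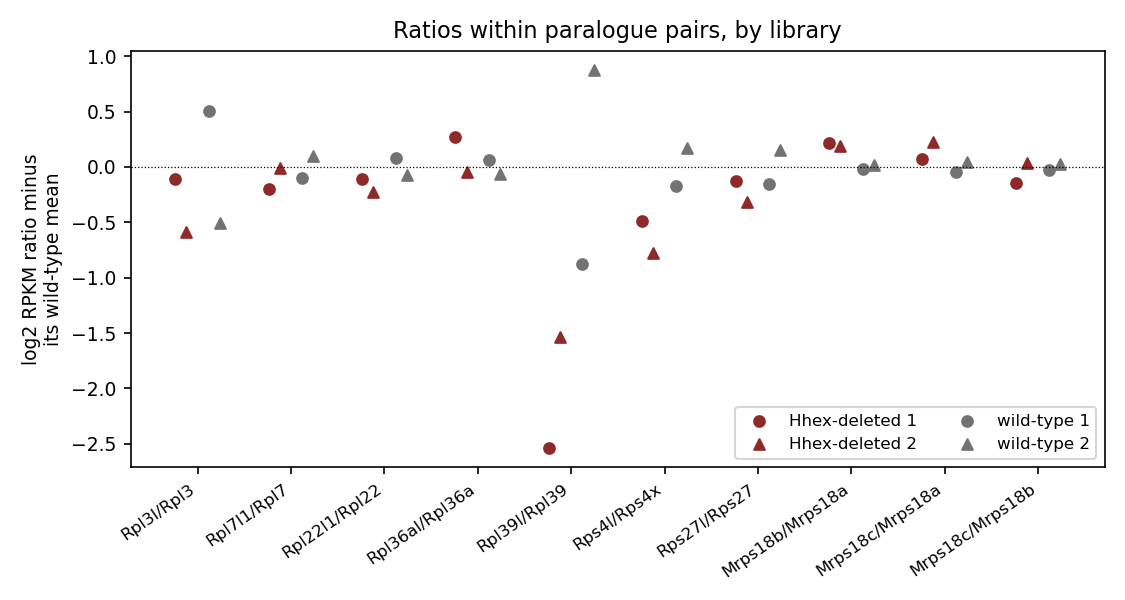
Log2 RPKM ratio within each paralogue pair minus the wild-type mean of that ratio, by library, for the 10 pairs with reads in both genes (circles replicate 1, triangles replicate 2; Hhex-deleted in dark red, wild-type in grey). Rps4l/Rps4x and Rpl39l/Rpl39 lie below the wild-type libraries in both Hhex-deleted libraries, the second of them on 2 and 2 reads against 6 and 16 reads of Rpl39l.

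Other genes of the pathway were also without calls at edgeR's adjusted p, which 2.6% of all tested genes passed. In the lists of 14 and 31 genes below, 0 calls lies near that share and is not a result about these genes. Ribosomal proteins with other symbols were at -0.16 (Fau) and -0.05 (Rack1, listed as Gnb2l1), and those of the mitochondrial ribosome at -0.03 (Dap3), 0.07 (Ptcd3), -0.04 (Chchd1), -0.16 (Aurkaip1), -0.02 (Gadd45gip1) and -0.08 (Ict1). Rps27rt, an Rps27 copy, was at 0.14 and Rpl7l1, an assembly factor of the large subunit, at -0.09. Of 101 tested ribosome assembly and ribosomal RNA synthesis genes, 0 passed the edgeR test and the median was -0.04. At an unadjusted p under 0.05 there was 1 higher, Polr1a, the large subunit of RNA polymerase I, and 1 lower, Bop1, an assembly factor, both named after their values were seen. Of all tested genes, 7.59% were higher and 8.23% lower at that unadjusted p by edgeR. Of 14 other mRNAs that start with a pyrimidine run, such as elongation factors, 0 passed and the median was -0.01. Of 31 genes of mitochondrial translation and ribosome assembly, 0 passed and the median was -0.03. At an unadjusted p under 0.05 both of these lists had 0 genes, beside 15.8% of all tested genes. DESeq2 and limma-voom called 0 genes in all 3 lists, beside 6.63% and 1.35% of all tested genes. Without Hhex-deleted replicate 1 the medians of the assembly, pyrimidine-run and mitochondrial translation lists were -0.08, -0.09 and -0.05, and without Hhex-deleted replicate 2 they were 0.02, 0.08 and -0.01.

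The start sites of the classes differed in sequence. Many cytosolic ribosomal protein mRNAs begin with a run of C and T bases, the terminal oligopyrimidine, through which their translation follows mTOR activity. RefSeq start-site sequences (GRCm38.p6) were found for 57 cytosolic and 67 mitochondrial members. A run of at least 8 C or T bases on the transcript strand, touching the 10 bases on either side of the annotated start, was present in 27 of 57 cytosolic members (47.4%) and 9 of 67 mitochondrial members (13.4%), beside 15.8% of 27025 genes. The 3 members of each class with the highest RPKM among those with an entry are shown. The stretch goes from 30 bases before the start to 20 bases after it. Capitals mark the longest run of C and T bases touching the same window, whatever its length.
Rpl4, chr9:64173357-64173406, plus strand: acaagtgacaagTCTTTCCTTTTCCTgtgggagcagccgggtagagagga
Rps9, chr7:3704011-3704060, plus strand: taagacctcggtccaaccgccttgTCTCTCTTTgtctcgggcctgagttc
Rps15, chr10:80292401-80292450, plus strand: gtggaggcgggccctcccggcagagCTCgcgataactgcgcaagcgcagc
Mrpl33, chr5:31613921-31613970, plus strand: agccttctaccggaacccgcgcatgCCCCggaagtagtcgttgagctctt
Mrpl12, chr11:120484607-120484656, plus strand: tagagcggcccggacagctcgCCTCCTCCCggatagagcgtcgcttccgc
Mrpl52, chr14:54426879-54426928, plus strand: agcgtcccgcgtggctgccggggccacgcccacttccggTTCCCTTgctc
The run is 14 bases in Rpl4 and 9 in Rps9 and Mrpl12, and 3, 4 and 7 bases in Rps15, Mrpl33 and Mrpl52. The Rpl4 run begins 18 bases before the annotated start and ends before it. The Mrpl52 run begins 9 bases after the start, so a marked run need not be the first bases of the mRNA.

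Motifs, none of which contains another, were searched on both strands from 250 bases before to 50 bases after the start. The ETS motif CCGGAAG occurred in 42.1% of cytosolic and 35.8% of mitochondrial members, beside 9.93% of all genes. The E-box CACGTG occurred in 10.5% and 7.46%, beside 8.09% of all genes. The TATA box TATAAA occurred in 10.5% of cytosolic and 7.46% of mitochondrial members, both below the 15.7% of all genes. A match is a description and not a site. Cytosolic members with a run of at least 8 bases had a median log2 fold change of -0.02, and the 30 with a shorter run had -0.03.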

How the data were processed

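RNA was taken from sorted LSK cells and sequenced as TruSeq libraries, per the labels' protocols. The deposited read counts per gene, and the deposited log2 RPKM values, were made by the authors with Subread, featureCounts and limma on the mouse build mm9, per the submitters' processing notes. The sources used here give neither the strand setting nor the treatment of reads with several matches. Counts of the 14912 genes passing filterByExpr (minimum count 10, minimum total 15) were tested with edgeR 4.0.16 (quasi-likelihood, TMM factors, group only, Benjamini-Hochberg adjustment over all tested genes, threshold 0.05) in R 4.3.3. Intervals are 95%. Log2 fold changes are Hhex-deleted over wild-type. Limma 3.58.1 and DESeq2 1.42.0 served as alternatives, with other scalings, no filter, the replicate block and each library left out. Adding near-identical loci to members was chosen after seeing the data. RPKM in the text was computed from counts and the deposited gene lengths. CPM was scaled by TMM. Code was tested on simulated data. Shared 50-mers came from GENCODE M21 transcripts, using the principal coding sequence of all 153 members, and start sites from RefSeq GRCm38.p6. Coordinates of these differ from mm9 and were not used to place reads. Members and lists were chosen with earlier results of these data known. Named members are those with the 5 highest and 5 lowest fold changes and 5 highest levels and the lowest level of each class, stalk, 5S particle and X-linked members, paralogues, and ribosomal proteins with other symbols. Some genes that this rule names are not reported here.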

Additional observations from a re-analysis of the deposited data

How the results depend on the processing

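The count of 0 called members held under all 14 alternatives except DESeq2, which called 1 mitochondrial member lower (Mrpl33). The mitochondrial median log2 fold change stayed negative throughout, between -0.139 and -0.00389 with a library left out, and it was -0.0585 with library totals alone. The cytosolic median changed sign with the setting. Counts over all tested genes moved more. Lower calls were 86 with no scaling factor and 272 with no low-count filter. DESeq2 gave 493 higher and 495 lower, limma-voom 123 and 79, and limma on log2 RPKM 34 and 6. With a library left out, higher calls ran between 84 and 366 and lower calls between 40 and 231. The median of all tested genes was 0.00185 with DESeq2 size factors in edgeR and 0.00185 in DESeq2, 0.0183 with library totals and 0.0167 with upper-quartile factors, and between -0.0125 and 0.00508 with a library left out. The causes were not tested. The labels do not say whether libraries with the same replicate number share a day or batch. Deviations of same-numbered libraries correlated at 0.326 over 14912 genes and 0.392 over 153 members, so a pairing by number stays possible. With the replicate block, edgeR called 185 genes higher and 130 lower, 0 members, and medians of -0.02 (cytosolic) and -0.08 (mitochondrial). Rpl39, the one member under 1 CPM, had 64 reads at the gene, while 99.9% of its combined reads were counted at near-identical loci.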
